A study of Caenorhabditis elegans with 45 samples.

Results

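Loss of SMG-1 was examined in worms mutant for both egl-9 and hif-1, by setting the 5 libraries titled smg-1; egl-9 hif-1 against the 5 titled egl-9 hif-1, chosen by title from 45 libraries of 9 genotypes. The triple mutant, strain MT27177, carries the alleles n6597 of smg-1, sa307 of egl-9 and ia4 of hif-1. The double mutant, strain CB6088, carries sa307 and ia4 without n6597. The egl-9 and hif-1 mutations are thus carried by both groups, and each genotype is represented by 1 strain, so a difference due to smg-1 cannot be told apart from other differences between the strains. Each library holds polyadenylated RNA of whole young adult Caenorhabditis elegans hermaphrodites, taken 6 h after 300 to 500 larvae at the L4 stage were picked, with OP50 bacteria as food, at 20 °C and 20% oxygen. Both strains were untreated.

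Nonsense-mediated decay (NMD) removes mRNAs on which a ribosome stops at a premature termination codon, including transcripts of pseudogenes and unproductive splice forms of normal genes. SMG-1 is the protein kinase that phosphorylates the RNA helicase SMG-2 during this process. HIF-1 is the transcription factor of the hypoxia response, and in well-oxygenated worms EGL-9 hydroxylates it, which leads to its breakdown. Worms without EGL-9 therefore keep HIF-1 active. Both groups compared here carry the hif-1 mutation as well, and whether any HIF-1 function remained was not tested.

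Total counts were 15081676 to 29656955 in the triple mutant and 13970974 to 27396660 in the double mutant. The first principal component of the 10 libraries held 63.0% of the variance and separated the groups, with the triple mutant at 43.9 to 61.2 and the double mutant at -69.3 to -44.0. Replicate C of the triple mutant stood apart at 43.9, against 59.0 to 61.2 in the other 4, and its mean correlation with its own group was 0.979, against 0.986 to 0.988. In that library genes with at least 5 kb of exon and a mean of at least 5 CPM sat 0.45 log2 units below the group mean. In replicates C and E of the double mutant they sat 0.30 and 0.40 units below theirs. Replicate C of the triple mutant also had raised HIF-1 targets, with cysl-2 at 77.7 CPM against 8.47 to 11.9 CPM in the other triple mutant libraries. Calls that leaving out this library ended or turned, and counts that it moved strongly, are also given without it. Markers of 10 tissues, from muscle and intestine to germline, were detected in both groups. The summed germline and oocyte markers were 1809 to 2290 counts per 1000000 (CPM) in the triple mutant and 2509 to 3408 CPM in the double mutant. Those of the gonad sheath and spermatheca were 415 to 495 CPM in the triple mutant and 545 to 657 CPM in the double mutant. Those of the seam and vulva went the other way, at 42.7 to 49.01 CPM in the triple mutant and 27.1 to 39.2 CPM in the double mutant, and the other 7 marker sums overlapped.

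Of 16053 genes tested with edgeR, 5888 (36.7%) differed between the triple and the double mutant at an adjusted p under 0.05. They are referred to as called, and these p-values measure only the spread between the libraries at hand. Of them 2992 (18.6%) were higher and 2896 (18%) were lower in the triple mutant, and the median log2 fold change of all tested genes was -0.04. Large changes went almost all one way, since 1816 genes (11.3%) were at least 2-fold higher and 128 (0.797%) at least 2-fold lower. On the deposited log2(TPM + 1) values, tested with limma, the split of calls was 3394 higher to 919 lower, and with only the 10 libraries in the edgeR model it was 2699 to 1696. The median of all genes was 0.08 on the TPM scale, against -0.04 on the count scale, so the number of small decreases depends on the scaling.

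Replicate C of the triple mutant did not carry the increases. Without it 5893 genes (36.4%) were called, 3299 higher (20.4%) and 2594 lower (16%). Of these 2086 (12.9%) were at least 2-fold, 1899 higher (11.7%) and 187 lower (1.16%). Among genes tested both ways, 1767 of the 1816 2-fold higher genes were also 2-fold higher without that library (97.3% of this list and 93.9% of the other). For the 2-fold lower genes the number shared was 108 of 128 (84.4% of this list and 59.0% of the other). The values of 3509 genes (21.9%) did not overlap between the groups, 2242 (14.0%) with the triple mutant above and 1267 (7.89%) with it below.

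The 2-fold higher genes were mostly weakly expressed in the double mutant. Among 2695 genes under 1 CPM there, 33.7% were at least 2-fold higher in the triple mutant. The share was 13.9% of 4998 genes at 1 to 10 CPM, 3.11% of 6309 genes at 10 to 100 CPM and 0.731% of 2051 genes at 100 CPM or more. A gene that is low in the double mutant could enter the test through its level in NMD mutants. Of the 13225 tested genes above the filter's level of 0.591 CPM in all 5 double mutant libraries, 890 (6.73%) were at least 2-fold higher.

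**Figure D1:**
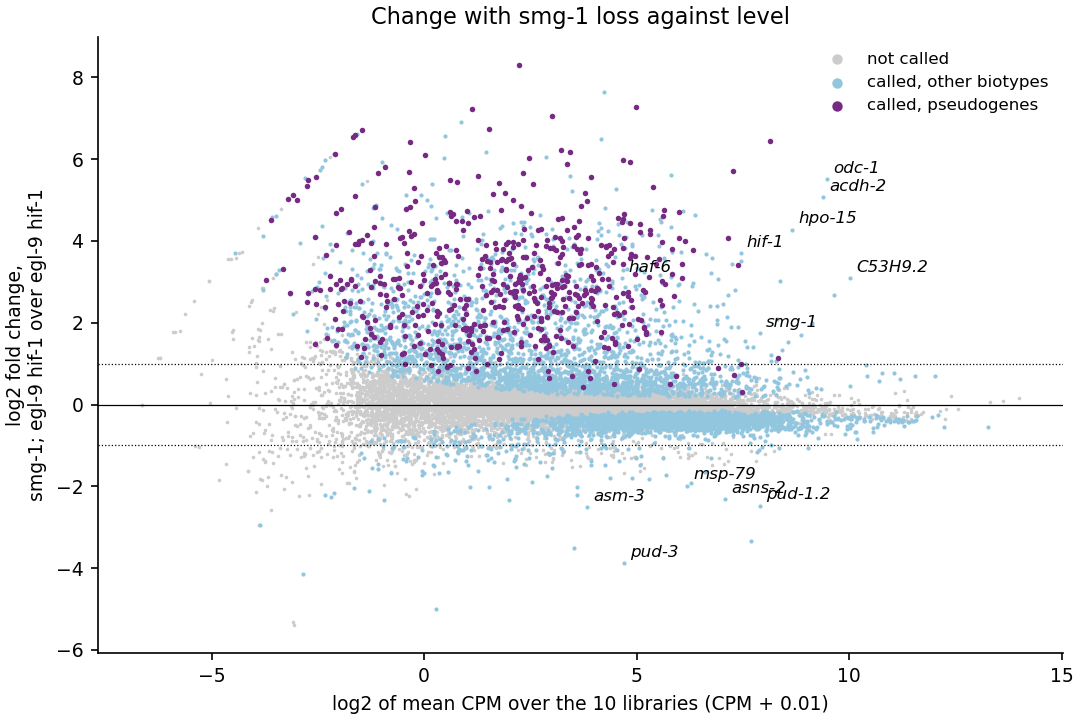
Log2 fold change of the triple over the double mutant (vertical axis) against the log2 of the mean CPM over the 10 libraries (horizontal axis, 0.01 added), for 16053 genes. Grey points are not called, blue points are called, purple points are called pseudogenes, and dotted lines mark a 2-fold change. The called pseudogenes all lie above 0, and 2-fold changes are mostly increases.

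Most pseudogenes that were tested were higher in the triple mutant. Of 680 pseudogenes tested, out of 2128 in the table, 563 were higher and 0 lower by edgeR, with a median log2 fold change of 2.64. At an unadjusted p under 0.05, 588 were higher and 1 lower, and DESeq2 called 571 higher and 0 lower. Without replicate C of the triple mutant edgeR called 566 higher and 1 lower. Among the 278 that passed the filter's level in all 5 double mutant libraries, 225 (80.9%) were at least 2-fold higher. Pseudogenes took 1.14% to 1.53% of the counts in triple mutant libraries and 0.339% to 0.451% in double mutant libraries, so the shares did not overlap.

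The pseudogene with the smallest p was WBGene00012569 (chromosome V, 18136704 to 18137714 in WBcel235). It had 98.0, 89.1, 89.2, 99.5 and 94.1 CPM in triple mutant replicates A to E, against 4.15, 5.19, 3.14, 3.10 and 3.48 CPM in double mutant replicates A to E. Every triple mutant library was far above every double mutant library, with a change of 4.62 log2 units (SE 0.12, adjusted p 4.14e-30 in edgeR). On chromosome V, 531 of 3207 tested genes (16.6%) were at least 2-fold higher and 31 (0.967%) at least 2-fold lower, against 11.3% and 0.797% of all tested genes. Among protein-coding genes the 2-fold higher share was 12.7% on chromosome V and 8.05% overall. Pseudogene WBGene00015763 (V, 570571 to 571205) averaged 62.4 ± 9.02 CPM in the triple mutant and 0.369 ± 0.187 CPM in the double mutant (SD, n = 5 each), a change of 7.28 log2 units (SE 0.25). Pseudogene WBGene00020622 averaged 9.36 ± 1.67 CPM in the triple mutant, while no double mutant library held more than 1 count of it, so no fold is given.

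Some noncoding RNAs were higher too, while many did not pass the test. Of 35 long intergenic RNAs with a linc name, 17 were higher and 0 lower, with a median of 0.77 against -0.04 for all genes. At an unadjusted p under 0.05 the numbers were also 17 and 0, as they were with DESeq2. Of the 49 tested genes of the lincRNA biotype, 21 passed the filter's level in all 5 double mutant libraries, and 8 of these (38.1%) were at least 2-fold higher. Of 68 genes of the ncRNA biotype 28 were higher and 1 lower, and of 9 antisense RNAs 8 were higher, though only 2 of the 9 passed the filter's level in all 5 double mutant libraries. The RNA linc-9 had 48.1, 50.9, 50.6, 51.6 and 48.9 CPM in the triple mutant and 2.57, 2.63, 1.57, 1.68 and 1.78 CPM in the double mutant, a change of 4.60 log2 units (SE 0.13, adjusted p 2.13e-28 in edgeR). The groups were widely separated and the spread within each was small.

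Among protein-coding genes 1227 were at least 2-fold higher and 128 at least 2-fold lower. The 2-fold higher ones had a median of 6 exons, 1274 nt of exon and a longest 3′ UTR of 117 nt, and 39.0% had more than 1 annotated transcript. The 2-fold lower ones had 4 exons, 1009.5 nt of exon, a 3′ UTR of 93.5 nt, and 11.72% had more than 1 transcript. Protein-coding genes that were not called had 6 exons, 1303 nt and 136 nt, and 34.6% had more than 1 transcript. These are descriptions of the annotation and were not tested.

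Genes with large gains in level included enzymes of polyamine synthesis and of fatty acid breakdown. The gene odc-1, which encodes ornithine decarboxylase, the enzyme that makes putrescine, had 1310.2, 1283.5, 1722, 1187 and 1426 CPM in the triple mutant and 26.8, 25.5, 46.0, 22.5 and 30.8 CPM in the double mutant. It was higher by 5.52 log2 units (SE 0.21, adjusted p 1.90e-24 in edgeR), and each triple mutant library was above 1000 CPM. The gene smd-1, for S-adenosylmethionine decarboxylase of the same pathway, had 1269, 1553, 1253, 1412 and 1417 CPM in the triple mutant and 217, 243, 227, 207 and 193 CPM in the double mutant (log2 fold change 2.67, SE 0.09, adjusted p 7.02e-26 in edgeR). Its groups did not overlap either. The spermidine synthase gene spds-1 averaged 40.6 ± 2.16 CPM in the triple mutant and 23.9 ± 2.75 CPM in the double mutant, so all 3 named enzymes of the pathway were higher. The acyl-CoA dehydrogenase gene acdh-2 had 1470, 1145, 1224, 1254 and 1402 CPM in the triple mutant and 39.1, 43.3, 39.1, 29.6 and 41.7 CPM in the double mutant, a change of 5.07 log2 units (SE 0.25, adjusted p 4.38e-21 in edgeR). odc-1, smd-1 and acdh-2 were picked for their gain in CPM after values were seen. smd-1 shares exon sequence with an annotated neighbour on its strand, and so does acdh-2.

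Other genes with very small p-values had diverse roles. C53H9.2 (chromosome I, 1832897 to 1834763), whose gain in CPM was larger than those of the enzymes above, had 2016, 1789, 1779, 1935 and 1789 CPM in the triple mutant and 237, 248, 194, 189 and 232 CPM in the double mutant, a change of 3.08 log2 units (SE 0.08, adjusted p 2.28e-29 in edgeR). hpo-15, named for a hypersensitivity to pore-forming toxin, had 746, 747, 745, 765 and 813 CPM in the triple mutant and 35.7, 56.3, 33.8, 37.1 and 33.9 CPM in the double mutant (log2 fold change 4.28, SE 0.13), and an annotated gene on the opposite strand overlaps its exons. In both genes the triple mutant libraries lay close together and far above the double mutant. ift-43, for a subunit of the intraflagellar transport machinery of cilia, had 150, 149, 181, 166 and 145 CPM in the triple mutant and 7.82, 7.99, 4.55, 5.03 and 6.31 CPM in the double mutant (log2 fold change 4.63, SE 0.13, adjusted p 8.65e-29 in edgeR). H28G03.2 averaged 193 ± 20.1 CPM in the triple mutant and 20.9 ± 2.95 CPM in the double mutant. Y110A7A.7 averaged 61.7 ± 3.70 CPM in the triple mutant and 10.0 ± 0.459 CPM in the double mutant, and Y17G9B.4 averaged 85.2 ± 5.49 CPM in the triple mutant and 4.77 ± 1.53 CPM in the double mutant. All of these were chosen by a rule that asked for groups without overlap.

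**Figure D2:**
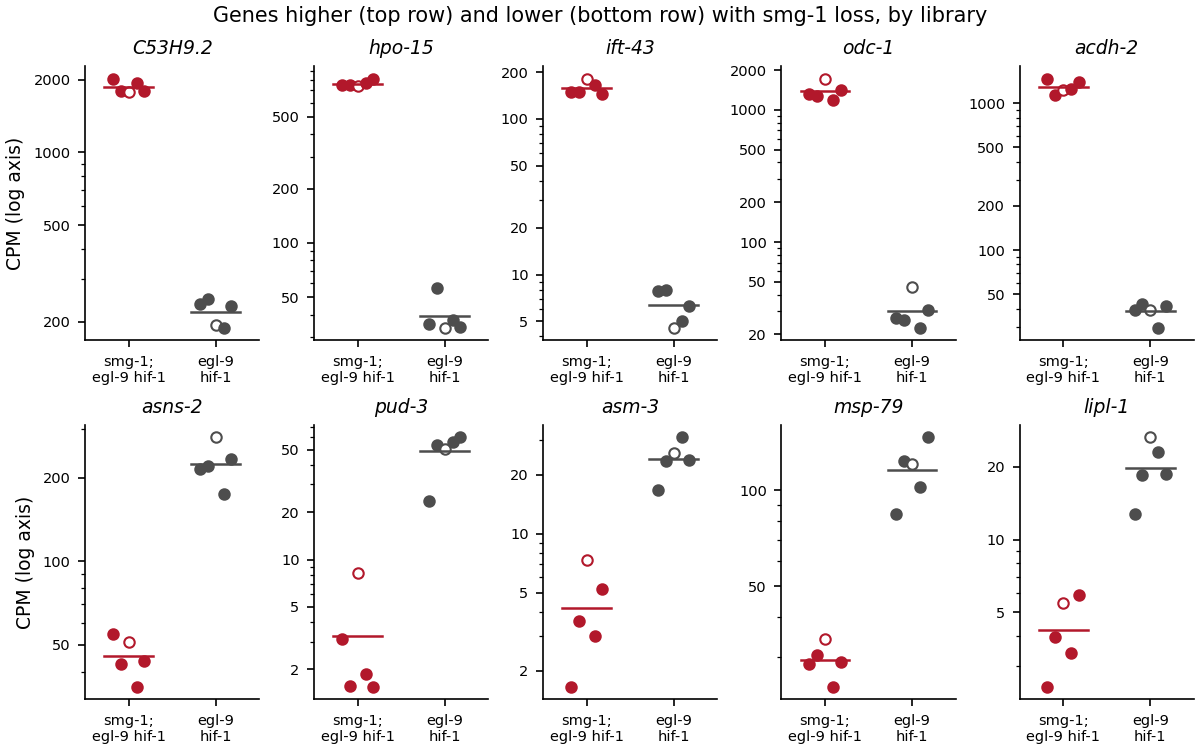
CPM (log axis) of 5 higher genes (top) and 5 lower genes (bottom) in each library, with the triple mutant in red on the left and the double mutant in grey on the right of each panel. Points are libraries, open points are replicate C and lines are means. In all 10 panels the groups do not overlap.

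Large gene families of the worm held many of the higher genes. Of 188 nuclear hormone receptor genes, 84 were higher and 4 lower, with a median of 0.34, and without replicate C of the triple mutant 91 were higher and 1 lower. nhr-101 averaged 92.1 ± 5.98 CPM in the triple mutant and 7.74 ± 0.959 CPM in the double mutant (log2 fold change 3.57, SE 0.11, adjusted p 6.46e-28 in edgeR), and nhr-195 averaged 20.7 ± 2.10 CPM in the triple mutant and 1.43 ± 0.333 CPM in the double mutant. Of 133 C-type lectins, which bind sugars, 56 were higher and 6 lower. clec-165 had 25.5, 27.1, 37.9, 30.4 and 28.2 CPM in the triple mutant and 4.46, 2.91, 1.88, 3.03 and 2.79 CPM in the double mutant (log2 fold change 3.30, SE 0.18, adjusted p 2.85e-19 in edgeR). Against a background of 18.6% higher, the share was 44.7% of the nuclear hormone receptors and 42.1% of the lectins. The genes tested were 188 of 269 nuclear hormone receptors and 133 of 240 lectins. Members low in the double mutant could enter the test through their level in NMD mutants. Shares among members above the filter's level in all 5 double mutant libraries were not counted, here or for the families that follow.

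The F-box genes, whose proteins recruit substrates to ubiquitin ligases, split more evenly than the nuclear hormone receptors and lectins. Of 204 tested, 46 were higher (22.5%) and 13 lower (6.37%), against 18.6% and 18% of all tested genes. The increases among them could be very large. fbxa-211 (V, 18127519 to 18128888, within 10 kb of WBGene00012569) had 133, 131, 112, 147 and 133 CPM in the triple mutant and 5.25, 5.99, 3.45, 4.58 and 5.22 CPM in the double mutant, a change of 4.73 log2 units (SE 0.12, adjusted p 5.15e-30 in edgeR). fbxa-140 was higher by 4.76 (SE 0.14) and fbxa-209 by 5.26 (SE 0.21). Of 54 MATH and BATH genes, a family of ubiquitin ligase adaptors, 23 were higher (42.6%) and 9 lower (16.7%). Without replicate C of the triple mutant 20 were higher and 8 lower. Members of such families can resemble each other and pseudogene copies, so values of single members are uncertain.

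Genes for detoxification enzymes also rose more often than they fell. Of 56 cytochrome P450 genes 18 were higher (32.1%) and 5 lower (8.93%), and 22 and 5 without replicate C of the triple mutant. Of 63 UDP-glucuronosyltransferase genes 21 were higher (33.3%) and 5 lower (7.94%). The shares of all tested genes were 18.6% and 18%. cyp-32B1 averaged 13.8 ± 1.75 CPM in the triple mutant and 2.42 ± 1.01 CPM in the double mutant (log2 fold change 2.51, SE 0.20, adjusted p 7.04e-14 in edgeR). ugt-7 averaged 22.7 ± 1.53 CPM in the triple mutant and 5.97 ± 1.53 CPM in the double mutant (log2 fold change 1.93, SE 0.13, adjusted p 4.36e-16 in edgeR). Of 41 glutathione S-transferase genes 7 were higher and 5 lower, shares below the background of all genes.

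Genes known for unproductive splice forms that NMD removes rose in part. Of 8 SR splicing factors 5 were higher (62.5%) and 1 lower (12.5%), against 18.6% and 18% of all tested genes. rsp-6 had 253, 249, 239, 266 and 246 CPM in the triple mutant and 136, 137, 119, 134 and 153 CPM in the double mutant (log2 fold change 0.88, SE 0.07, adjusted p 2.69e-14 in edgeR), and rsp-7, rsp-8, rsp-1 and rsp-2 were higher by 0.58, 0.49, 0.29 and 0.29. rsp-3 was the exception at 179 ± 9.85 CPM in the triple mutant and 253 ± 12.4 CPM in the double mutant (log2 fold change -0.50, SE 0.07, adjusted p 3.49e-07 in edgeR). Among 5 ribosomal protein genes with such splice forms, rpl-7A and rpl-12 were higher by 0.69 (SE 0.09) and 0.62 (SE 0.12) and rpl-2 was lower by -0.37 (SE 0.11), a call lost without replicate C or replicate E of the double mutant (adjusted p 0.112 and 0.144 in edgeR).

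The 76 cytosolic ribosomal protein genes of a separate list had 33 lower (43.4%), 3 higher (3.95%) and a median of -0.29. Of all tested genes 18% were lower and 18.6% higher. The median of all 2051 genes at 100 CPM or more in the double mutant was also -0.29. Of 2872 genes with under 1 kb of exon and a mean of at least 5 CPM, 747 were lower and 348 higher, with a median of -0.16. Of all 10538 genes at that level 2742 were lower and 1616 higher, with a median of -0.13. The list's mean log2 CPM was 10.34 in replicate C of the triple mutant and 9.76 to 9.89 in its other libraries, against 10.38 and 10.51 in replicates C and E of the double mutant and 9.93 to 10.11 in its others. These are the libraries in which long genes sat low, and the part of this in the result was not tested. The number lower was 51 without replicate C of the triple mutant and 21 with DESeq2 size factors, and the median on the TPM scale was -0.14. rpl-30 and rps-22 went the other way. rpl-30 had 1634, 1794, 2194, 1759 and 1549.8 CPM in the triple mutant and 796, 934, 967, 809 and 1082 CPM in the double mutant, without overlap and with a change of 0.96 log2 units (SE 0.11, adjusted p 3.08e-09 in edgeR).

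Among the 11 NMD factors 3 were higher and 1 lower. The share called was 36.4%, against 36.7% of all tested genes. smg-5, for a factor that acts after SMG-2 is phosphorylated, had 56.4, 48.9, 46.4, 51.8 and 51.3 CPM in the triple mutant and 30.2, 27.1, 25.4, 34.6 and 25.04 CPM in the double mutant (log2 fold change 0.84, SE 0.09, adjusted p 1.60e-10 in edgeR). smg-3 was higher by 0.35 (SE 0.12), and smg-9 was lower by -0.28 (SE 0.11, adjusted p 0.0454 in edgeR), a call lost without any one of triple mutant replicates A, B, C and D or double mutant replicates A, B, D and E (adjusted p 0.0547 to 0.150 in edgeR). xbp-1, a transcription factor gene of the endoplasmic reticulum stress response, had 430, 451, 379, 442 and 405 CPM in the triple mutant and 181, 200, 212, 226 and 181 CPM in the double mutant (log2 fold change 1.08, SE 0.08, adjusted p 1.06e-15 in edgeR). It was 1 of 2 called among 13 genes of that response, 15.4% against 36.7% of all tested genes. The other, sel-11, was lower by -0.40 (SE 0.09).

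**Figure D3:**
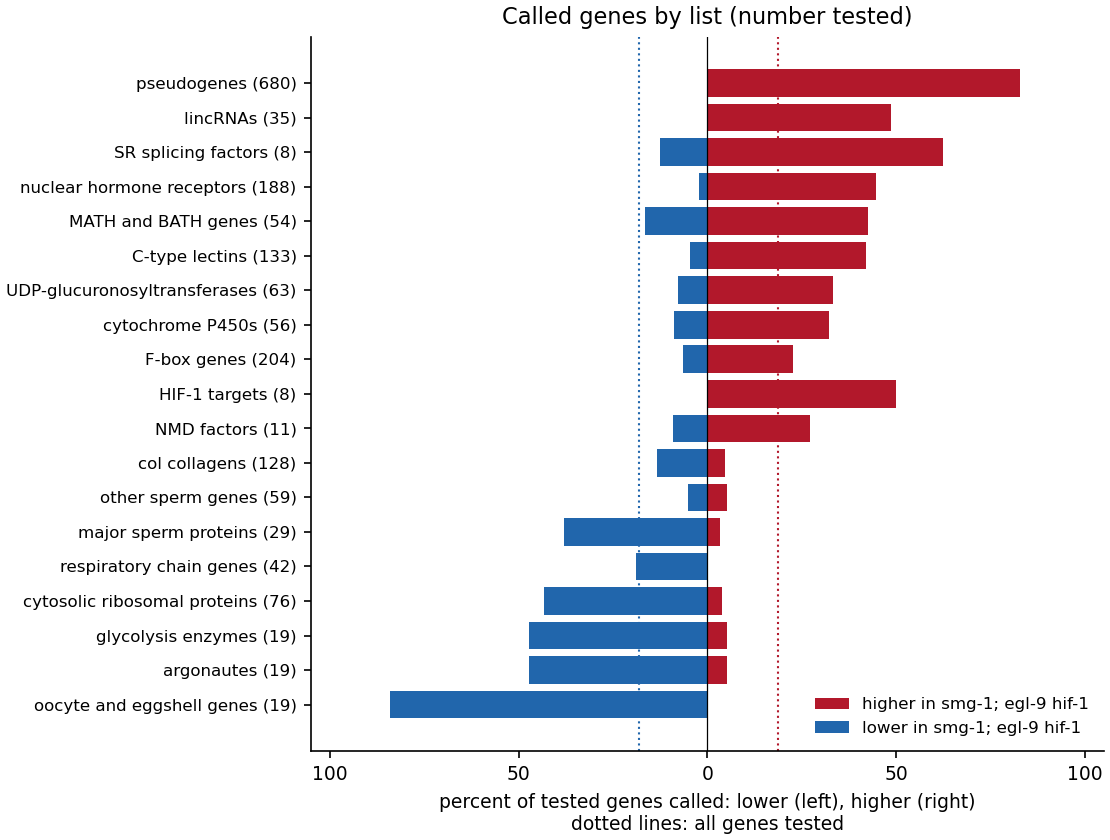
Percent of the tested genes of 19 lists that were called higher (red, right of 0) or lower (blue, left of 0) in the triple mutant, with the number tested in brackets. Dotted lines mark the shares of all tested genes, 18.6% higher and 18% lower. Pseudogenes reach the highest share to the right and oocyte and eggshell genes the highest share to the left.

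Small decreases were found in oocyte genes. Of 19 oocyte and eggshell genes 16 were lower (84.2%) and 0 higher by edgeR, against 18% and 18.6% of all tested genes. The median of the list was -0.54, and the unadjusted numbers were the same. DESeq2 called 15 lower and 0 higher, limma on the TPM values 1 lower and 0 higher, and without replicate C of the triple mutant 12 were lower. rme-2, the yolk receptor, had 495, 451, 341, 486 and 385 CPM in the triple mutant and 849, 758, 445, 746 and 628 CPM in the double mutant (log2 fold change -0.67, SE 0.15, adjusted p 3.82e-04 in edgeR). The groups overlapped through replicate C of the double mutant. In whole worms fewer cells of a type and less RNA per cell cannot be told apart. The summed germline and gonad sheath markers were lower too, as given above. The germline markers include rme-2 and oma-2 of this list, so that sum is not separate from it.

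Argonaute genes of small RNA pathways were divided. Of 19 tested, 9 were lower (47.4%) and 1 higher (5.26%), against 18% and 18.6% of all tested genes. On the TPM scale 4 were lower and 2 higher. ppw-1, which germline RNA interference requires, had 611, 604, 406, 590 and 580 CPM in the triple mutant and 220, 226, 161, 196 and 166 CPM in the double mutant (log2 fold change 1.52, SE 0.13, adjusted p 1.59e-13 in edgeR). The Piwi gene prg-1 averaged 198 ± 16.6 CPM in the triple mutant and 285 ± 21.7 CPM in the double mutant (log2 fold change -0.53, SE 0.08, adjusted p 7.84e-07 in edgeR). wago-1 was lower by -0.69 (SE 0.12) and ppw-2 by -0.52 (SE 0.09). Any part of the lower germline marker sum in these decreases was not tested.

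Sperm genes gave a mixed picture. Of 29 major sperm protein genes tested 11 were lower (37.9%) and 1 higher (3.45%), against 18% and 18.6% of all tested genes. Leaving out replicate C of the triple mutant gave 15 lower and 1 higher. The summed level of these genes was 2678 ± 429 CPM in the triple mutant and 3509 ± 689 CPM in the double mutant, with overlap. These genes are near-identical copies, so the values of single members are uncertain. msp-79 had 28.5, 30.5, 34.2, 24.2 and 28.9 CPM in the triple mutant and 84.1, 124, 121, 103 and 147 CPM in the double mutant (log2 fold change -1.98, SE 0.18, adjusted p 3.00e-12 in edgeR). msp-74 was the 1 higher member, at 5.20 ± 1.04 CPM in the triple mutant and 0.440 ± 0.113 CPM in the double mutant. Of 59 other sperm genes 3 were higher and 3 lower, 10.2% called against 36.7% of all tested genes. Leaving out replicate C of the triple mutant gave 6 higher and 2 lower. spe-44, for a transcription factor of sperm development, averaged 55.9 ± 4.30 CPM in the triple mutant and 23.6 ± 1.63 CPM in the double mutant (log2 fold change 1.24, SE 0.10, adjusted p 2.47e-13 in edgeR).

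Among 19 glycolysis enzymes 9 were lower (47.4%) and 1 higher (5.26%), against 18% and 18.6% of all tested genes. The glyceraldehyde-3-phosphate dehydrogenase genes gpd-1 and gpd-4 were lower by -0.78 (SE 0.15) and -0.77 (SE 0.16), and the pyruvate kinase gene pyk-2 was higher by 0.51 (SE 0.07), at 110 ± 3.68 CPM in the triple mutant and 77.3 ± 8.86 CPM in the double mutant. On the TPM scale 4 were lower and 2 higher, and with DESeq2 size factors 6 were lower and 1 higher, as without replicate C of the triple mutant. Of 13 lysozyme genes 5 were higher (38.5%) and 0 lower, at an unadjusted p under 0.05 as well, and DESeq2 called 4 and 0. lys-6 had 8.44, 8.29, 8.39, 7.94 and 7.10 CPM in the triple mutant and 1.04, 2.51, 1.73, 1.68 and 2.91 CPM in the double mutant (log2 fold change 2.00, SE 0.23, adjusted p 2.08e-09 in edgeR).

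The genes named for their decrease were of several kinds. asns-2, for an asparagine synthetase, had 54.5, 42.7, 51.1, 35.3 and 43.8 CPM in the triple mutant and 215, 221, 280, 175 and 234 CPM in the double mutant (log2 fold change -2.31, SE 0.14, adjusted p 8.13e-18 in edgeR). No library of one group came near the other. asm-3, an acid sphingomyelinase gene, had 1.66, 3.60, 7.34, 2.99 and 5.20 CPM in the triple mutant and 16.7, 23.3, 25.8, 30.9 and 23.7 CPM in the double mutant (log2 fold change -2.50, SE 0.32, adjusted p 2.43e-08 in edgeR). The lysosomal lipase gene lipl-1 averaged 4.23 ± 1.43 CPM in the triple mutant and 19.9 ± 5.21 CPM in the double mutant (log2 fold change -2.21, SE 0.35, adjusted p 1.53e-06 in edgeR). The lipase-related lips-15, the inositol transporter gene hmit-1.2, the saposin-like spp-2 and the aspartyl protease gene asp-14 were lower by -1.27, -1.75, -1.47 and -1.12, each without overlap as the rule required, and asm-3 and hmit-1.2 overlap annotated genes on the opposite strand. Y39B6A.27, plep-1, T22B7.3 and E04F6.4, named by the same rule, were lower by -2.33, -1.90, -1.82 and -1.09. irg-1, an infection response gene, was lower by -2.03 (SE 0.36), and dod-17 by -1.05 (SE 0.19). Of 17 irg and dod genes tested, 4 were lower (23.5%) and 3 higher (17.6%), against 18% and 18.6% of all tested genes.

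A cluster of pud genes on chromosome V, named as proteins upregulated in a daf-2 mutant, was lower as a block. pud-3 (V, 2324634 to 2325152) had 3.12, 1.58, 8.19, 1.88 and 1.56 CPM in the triple mutant and 23.5, 53.5, 50.4, 56.3 and 59.7 CPM in the double mutant (log2 fold change -3.88, SE 0.39, adjusted p 2.96e-11 in edgeR). Its neighbour pud-4 (V, 2326678 to 2327282) had 1.59, 1.58, 3.87, 1.08 and 1.06 CPM in the triple mutant and 9.96, 23.8, 21.0, 24.5 and 26.3 CPM in the double mutant (log2 fold change -3.51, SE 0.36, adjusted p 6.62e-11 in edgeR). In both genes replicate C was the highest triple mutant library, and without it the log2 fold changes were -4.58 and -3.98. pud-1.2 (V, 2322038 to 2322566) had 55.1, 39.6, 144, 50.8 and 73.03 CPM in the triple mutant and 172, 361, 514, 398 and 568 CPM in the double mutant (log2 fold change -2.47, SE 0.32). The genes labelled pud-2.2 are a near-identical pair whose counts were equal in 38 of 45 libraries. Among these were all 5 triple mutant libraries but only 1 double mutant library. The split between the copies is thus uncertain. Their sum was 74.5 ± 45.6 CPM in the triple mutant and 468 ± 163 CPM in the double mutant.

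For several of these genes both strains with egl-9 and hif-1 mutations and intact smg-1 were high. asns-2 averaged 39.8 ± 5.91 CPM in smg-1 and 27.5 ± 3.72 CPM in N2, the wild-type strain, so the triple mutant, at 45.5 ± 7.51 CPM, was near both and the double mutant, at 225 ± 37.8 CPM, was far above. The smg-2; egl-9 hif-1 strain, which lacks the NMD helicase in the same background, had 312 ± 67.6 CPM. The triple mutant was lower than that strain by -2.78 (SE 0.14, adjusted p 5.23e-19 in edgeR). pud-3 averaged 39.5 ± 14.8 CPM in smg-2; egl-9 hif-1, 2.63 ± 1.01 CPM in smg-1 and 2.90 ± 2.17 CPM in N2, and asm-3 averaged 21.4 ± 5.83 CPM in smg-2; egl-9 hif-1, 3.15 ± 1.02 CPM in smg-1 and 4.02 ± 1.08 CPM in N2. For asm-3 the values with HIF-1 active lay between, at 10.5 ± 4.38 CPM in smg-1; egl-9 and 16.097 ± 4.8 CPM in egl-9. The triple mutant was lower than smg-2; egl-9 hif-1 by -3.58 (SE 0.38) for pud-3, -2.33 (SE 0.32) for asm-3, -1.997 (SE 0.17) for spp-2 and -1.58 (SE 0.17) for hmit-1.2. For lipl-1 and irg-1 the same contrast gave -0.80 (SE 0.35, adjusted p 0.0738 in edgeR) and -0.83 (SE 0.36, adjusted p 0.0725 in edgeR). This contrast was added after the data had been seen, and it uses the same triple mutant libraries.

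**Figure D4:**
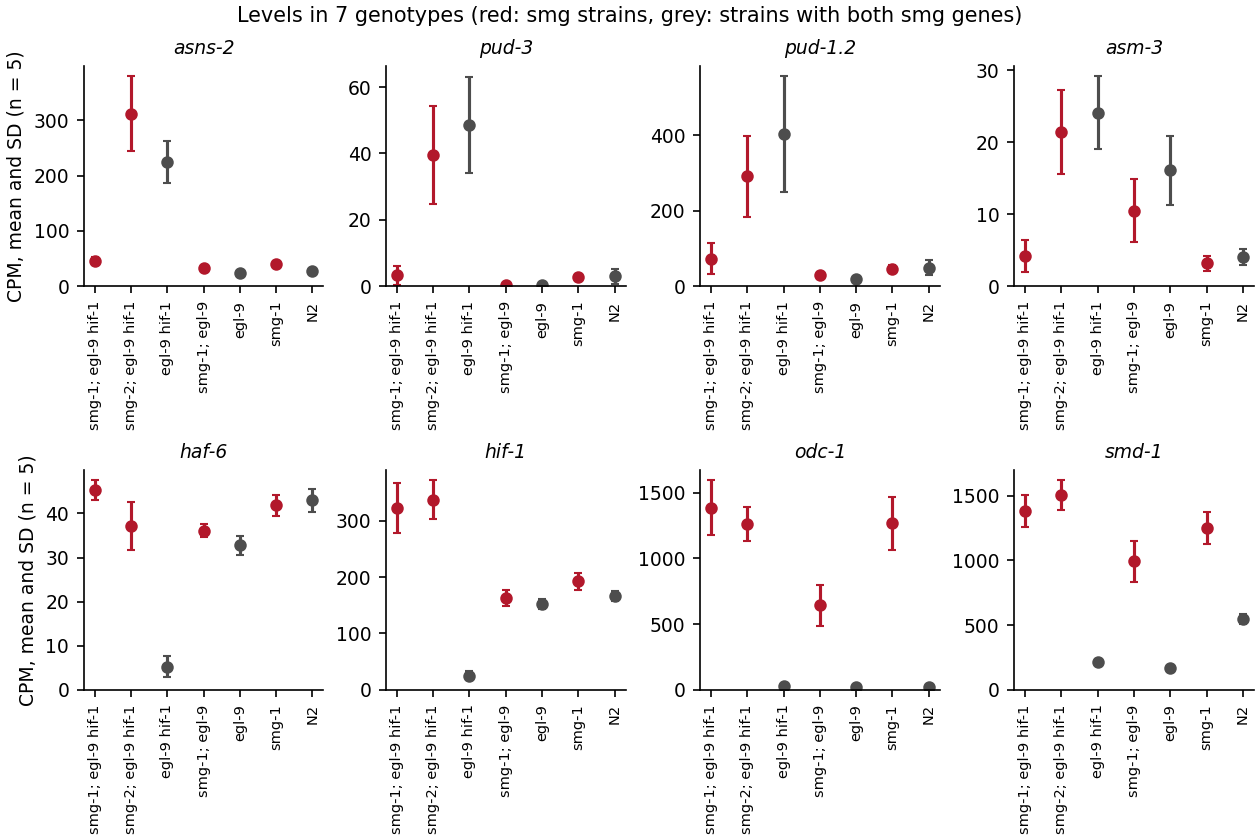
Mean CPM (points) and SD (bars, n = 5) of 8 genes in 7 genotypes, with strains mutant for smg-1 or smg-2 in red and strains with both smg genes intact in grey. The double mutant and smg-2; egl-9 hif-1 are high and the triple mutant is low for asns-2 and the pud genes. The double mutant alone is low for haf-6 and hif-1.

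The mutated genes themselves were measured in every library. smg-1 RNA had 441, 399, 249, 364 and 379 CPM in the triple mutant and 129, 120, 87.7, 129 and 83.2 CPM in the double mutant (log2 fold change 1.74, SE 0.18, adjusted p 1.26e-10 in edgeR). The RNA of the mutated gene was thus higher and not lower in the mutant, so it does not serve as a check of the label. egl-9 RNA had 24.9, 24.7, 22.1, 23.1 and 22.4 CPM in the triple mutant and 20.6, 19.7, 12.2, 17.8 and 14.8 CPM in the double mutant (log2 fold change 0.46, SE 0.12, adjusted p 0.00289 in edgeR). hif-1 RNA had 361, 348, 248, 318 and 339 CPM in the triple mutant and 36.04, 26.2, 20.2, 26.4 and 15.8 CPM in the double mutant. The last pair of groups was widest apart, and the triple mutant was also above smg-1 (192 ± 15.9 CPM) and N2 (166 ± 9.14 CPM).

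The ABC transporter gene haf-6 (chromosome I, 1162880 to 1175809) showed the same low level in the double mutant. It had 46.4, 46.6, 44.8, 47.1 and 41.4 CPM in the triple mutant and 7.15, 8.45, 3.14, 3.81 and 3.80 CPM in the double mutant (log2 fold change 3.10, SE 0.15, adjusted p 3.40e-21 in edgeR). It averaged 41.8 ± 2.38 CPM in smg-1, 42.9 ± 2.69 CPM in N2, 36.1 ± 1.58 CPM in smg-1; egl-9, 32.8 ± 2.204 CPM in egl-9 and 37.2 ± 5.399 CPM in smg-2; egl-9 hif-1. The double mutant is thus the only one of these 7 genotypes with a mean under 10 CPM. An annotated gene on the opposite strand overlaps its exons.

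Known targets of HIF-1 showed how far 1 library can move a list. Of 8 targets 4 were higher (50%) and 0 lower, against 18.6% and 18% of all tested genes, with a median of 0.50. At an unadjusted p under 0.05 there were 6 and 0, and DESeq2 called 5 and 0. Without replicate C of the triple mutant 3 were higher and 1 lower, with a median of 0.28. sqrd-1, for a sulfide oxidoreductase, had 0.996, 0.493, 16.3, 0.541 and 0.561 CPM in the triple mutant and 0.550, 0.399, 0.314, 0.387 and 0.850 CPM in the double mutant. Its log2 fold change was 2.88 (SE 0.69, adjusted p 9.30e-04 in edgeR), and 0.24 without replicate C (adjusted p 0.706 in edgeR). cysl-2, a cyanoalanine synthase gene, had 10.8, 9.77, 77.7, 11.9 and 8.47 CPM in the triple mutant and 13.7, 15.3, 14.7, 18.2 and 19.9 CPM in the double mutant, with a log2 fold change of 0.54 (adjusted p 0.241 in edgeR) that turned to -0.65 without replicate C (adjusted p 0.0116 in edgeR). rhy-1, for an inhibitor of HIF-1, had 51.1 CPM in replicate C and 17.9 to 21.7 CPM in the other triple mutant libraries, against 11.1 to 24.8 CPM in the double mutant.

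nhr-57, a nuclear hormone receptor gene among these targets, was higher with and without that library. It had 5.45, 7.10, 21.3, 5.66 and 6.95 CPM in the triple mutant and 2.14, 3.37, 2.51, 2.52 and 2.39 CPM in the double mutant, a change of 1.86 log2 units (SE 0.23, adjusted p 7.95e-09 in edgeR) and of 1.32 without replicate C (adjusted p 1.72e-12 in edgeR). Its groups were apart, and replicate C was the highest library. The level in egl-9, where HIF-1 is active, was 202 ± 14.6 CPM. Those of cysl-2, rhy-1 and sqrd-1 in egl-9 were 1524 ± 441, 623 ± 70.7 and 590 ± 59.9 CPM, far above every library of both groups compared here.

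**Figure D5:**
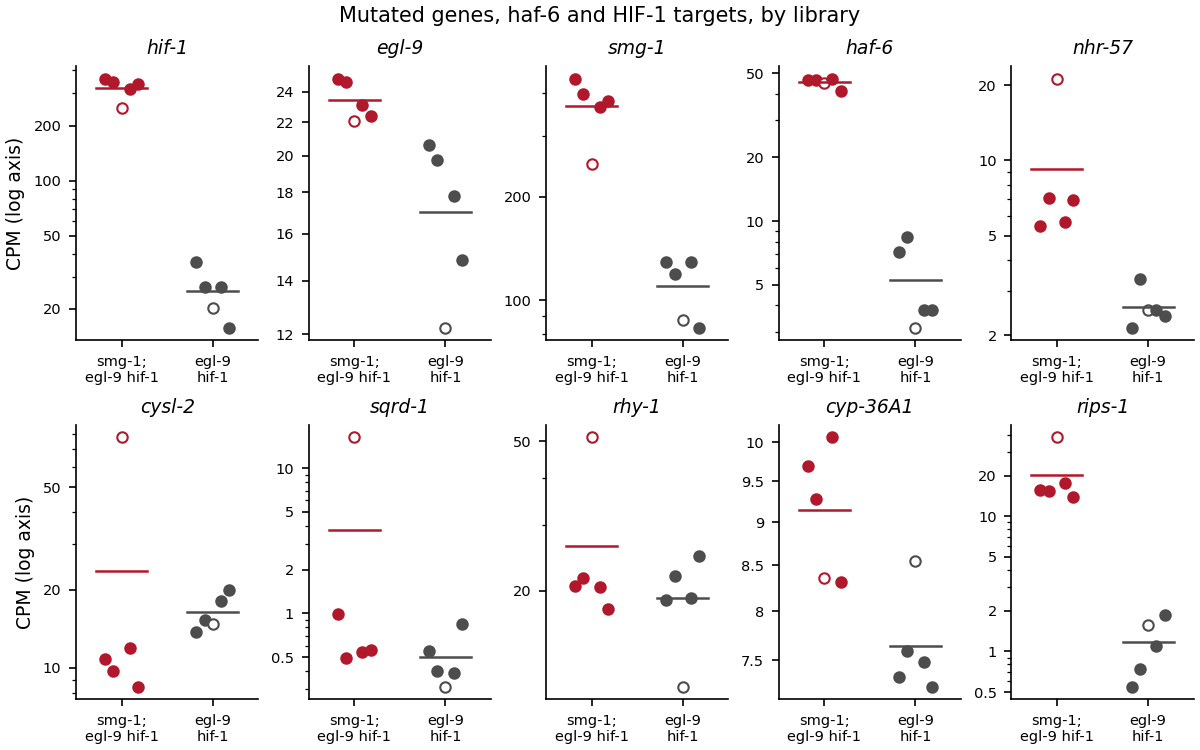
CPM (log axis) of the mutated genes, haf-6, rips-1 and HIF-1 targets in each library, with the triple mutant in red on the left and the double mutant in grey on the right of each panel. Points are libraries, open points are replicate C and lines are means. For hif-1 and haf-6 the groups are far apart, whereas for cysl-2, sqrd-1 and rhy-1 the triple mutant mean is raised by replicate C.

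Among the 10 genes that regulate or degrade HIF-1, 3 were lower and 2, hif-1 and egl-9, were higher. The share called was 50%, against 36.7% of all tested genes. elb-1, for elongin B of the ligase that degrades HIF-1, had 13.7, 18.1, 18.5, 16.16 and 14.2 CPM in the triple mutant and 25.05, 26.5, 26.4, 29.4 and 31.1 CPM in the double mutant (log2 fold change -0.78, SE 0.12, adjusted p 5.22e-07 in edgeR). cul-2 was lower by -0.37 (SE 0.11) and aha-1, the partner of HIF-1 on DNA, by -0.28 (SE 0.09), a call lost without replicate C of the triple mutant (adjusted p 0.0999 in edgeR) or replicate D of the double mutant (adjusted p 0.0744 in edgeR). In sulfide and cysteine metabolism 2 of 15 genes were higher and 1 lower. That is 20% called, against 36.7% of all tested genes. Without replicate C of the triple mutant 1 was higher and 2 lower. The gene cbs-1, for cystathionine beta-synthase, had 40.1, 37.99, 44.5, 34.9 and 40.7 CPM in the triple mutant and 24.3, 23.8, 25.6, 22.1 and 21.0 CPM in the double mutant (log2 fold change 0.77, SE 0.13, adjusted p 9.49e-06 in edgeR). It did not overlap between groups, and mpst-1 of the same list was lower by -0.47 (SE 0.12).

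The response to smg-1 loss was then set beside that with EGL-9 and HIF-1 intact, smg-1 against N2, which shares no library with it. Of the 1816 2-fold higher genes, 1528 were also 2-fold higher in smg-1 (84.1% of this list and 64.1% of 2385), where 14.9% of all tested genes were 2-fold higher. Of the 128 2-fold lower genes, 19 were 2-fold lower in smg-1 (14.8% of this list and 7.17% of 265), where 1.65% of all tested genes were 2-fold lower. Set beside smg-1; egl-9 against egl-9, where HIF-1 is active, 1479 of the 2-fold higher genes were shared (81.4% of this list and 72.9% of 2028) and 7 of the 2-fold lower ones (5.47% of this list and 15.2% of 46). The shares of all tested genes there were 12.6% and 0.287%. Across the 16053 genes, which are not independent replicates, the log2 fold changes had a Pearson r of 0.76 with smg-1 against N2 and 0.82 with smg-1; egl-9 against egl-9. Most 2-fold increases were thus shared with each of the other backgrounds, and few 2-fold decreases were.

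The difference itself was tested for each gene. The effect of smg-1 loss differed from that in wild type for 898 genes (5.59%), 229 with a positive difference (1.43%) and 669 with a negative one (4.17%). It differed from that in egl-9 for 575 genes (3.58%), 123 positive (0.766%) and 452 negative (2.82%). With DESeq2 size factors the splits were 382 positive to 559 negative and 226 to 191, so the preponderance of negative differences from egl-9 does not hold under that scaling, which moved the median of all genes from -0.11 to 0.02. These counts lean on single libraries. Without replicate C of the triple mutant they were 1197 (518 positive, 679 negative) and 692 (238 positive, 454 negative). Without replicate C of the double mutant they were 402 (188 positive, 214 negative) and 286 (133 positive, 153 negative), and without replicate E of the double mutant 275 genes differed from egl-9. Without smg-1 replicate C, 405 genes differed from wild type. Of the 128 2-fold lower genes 63 (49.2%) had a negative difference from wild type and 0 a positive one. Of the 1816 2-fold higher genes 81 (4.46%) had a positive and 30 (1.65%) a negative difference. The difference contains the contrast by which both lists were chosen. Its sign was thus partly set by that choice, and these counts are descriptions only.

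Genes with the clearest positive differences included both genes that were low in the double mutant. The difference from wild type was 3.49 (SE 0.17, adjusted p 4.49e-19 in edgeR) for hif-1 and 3.13 (SE 0.20, adjusted p 3.42e-15 in edgeR) for haf-6. rips-1, which acts with rhy-1 in the sulfide response, had 15.6, 15.3, 38.2, 17.7 and 13.9 CPM in the triple mutant and 0.550, 0.742, 1.57, 1.097 and 1.86 CPM in the double mutant, while smg-1 averaged 82.98 ± 11.8 CPM and N2 93.5 ± 7.33 CPM. The difference for rips-1 was 4.26 (SE 0.34), and smg-2; egl-9 hif-1 had 1.49 ± 0.201 CPM of it. For smd-1 the difference was 1.48 (SE 0.13, adjusted p 2.42e-11 in edgeR), and smg-1 averaged 1249.5 ± 122.3 CPM and N2 548 ± 39.0 CPM. C08F11.7 and the adjacent pseudogene WBGene00014672, both on chromosome IV between 13636560 and 13638666, were higher in the triple mutant than in both strains with egl-9 and hif-1 mutations and intact smg-1. C08F11.7 averaged 37.1 ± 4.78 CPM in the triple mutant, 0.395 ± 0.229 CPM in smg-2; egl-9 hif-1 and 0.148 ± 0.177 CPM in the double mutant. It was not particular to that background, with 32.6 ± 8.16 CPM in smg-1; egl-9 and 0.657 ± 0.253 CPM in egl-9. WBGene00014672 averaged 5.66 ± 0.393 CPM in the triple mutant, 0.141 ± 0.103 CPM in smg-2; egl-9 hif-1 and 0.0474 ± 0.0297 CPM in the double mutant.

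Genes with clear negative differences were of more than 1 kind. asns-2 was lower in the triple mutant and higher in smg-1 than in N2, a difference of -2.84 (SE 0.19, adjusted p 3.43e-14 in edgeR). pph-7, for a protein phosphatase, rose in all 3 backgrounds but least here. It averaged 47.6 ± 4.36 CPM in the triple mutant and 26.3 ± 3.30 CPM in the double mutant, 48.0 ± 7.22 CPM in smg-1 and 8.83 ± 1.87 CPM in N2, a difference of -1.58 (SE 0.16, adjusted p 1.58e-09 in edgeR). spds-1 was of the same kind, with 43.3 ± 4.05 CPM in smg-1 and 12.3 ± 2.40 CPM in N2 and a difference of -1.04 (SE 0.14). For pgp-5, an ABC transporter gene, the triple mutant had 98.9 ± 17.2 CPM, the double mutant 124 ± 37.9 CPM, smg-1 105.3 ± 12.4 CPM and N2 28.2 ± 10.2 CPM, a difference of -2.23 (SE 0.28). Between the triple and the double mutant it was not called (adjusted p 0.199 in edgeR).

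Collagen genes moved differently in the wild-type background. Of 128 col genes 6 were higher (4.69%) and 17 lower (13.3%) in the triple mutant, with a median of -0.44, both below the 18.6% and 18% of all tested genes. In contrast 76 were higher and 4 lower in smg-1 against N2, with a median of 1.27. Of all tested genes 28.8% were higher and 24.3% lower in smg-1 against N2. The difference from wild type was negative for 56 of them and positive for 0. With HIF-1 active (smg-1; egl-9 over egl-9), 24.1% of all tested genes were higher and 10.6% lower, and 33 col genes were higher and 2 lower, with a median of -0.02, and the difference from it was negative for 14 and positive for 0. Without replicate C of the triple mutant 5 were higher and 20 lower. Without replicate C of the double mutant col-3 and col-10, among others, lost their calls (adjusted p 0.275 and 0.149 in edgeR). The list's mean log2 CPM was 6.13 and 5.87 in replicates C and E of the double mutant and 4.78 to 5.63 in its others. In the triple mutant it was 4.81 to 5.63. The negative differences of col genes were not counted without those libraries. The number with a significant decrease on the TPM scale was 5, with a median of -0.17.

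Yolk and neuropeptide genes had no call by edgeR, and respiratory chain genes were lower about as often as all tested genes. Of 6 vitellogenin genes, which encode yolk proteins, 0 were called, with 0 higher and 1 lower at an unadjusted p under 0.05 and 0 called by DESeq2 or limma. Their summed level was 52741 ± 11775 CPM in the triple mutant and 51691 ± 11947 CPM in the double mutant. Of 30 genes for FMRFamide-like neuropeptides 0 were called, with 2 higher and 1 lower unadjusted, whereas DESeq2 called 2 and limma on the TPM values 7 higher. Of 42 respiratory chain genes 8 were lower and 0 higher by edgeR, with 14 and 0 unadjusted, and limma on the TPM values called 5 lower and 2 higher.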

How the data were processed

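The deposited count table holds whole-number gene counts, which are estimated counts that the authors had already rounded. A separate deposited table holds log2(TPM + 1) values. Per the submitters' processing notes, FastQC, STAR 2.7.9a, RSEM 1.3.0, DESeq2 and the build WBcel235 were used, with no roles given. Strand use in counting is not given in the sources used here. Libraries were polyadenylated RNA made with a directional kit with 12 PCR cycles and read as 75-nt pairs, per the labels' protocols. Coordinates, biotypes and overlaps come from Ensembl release 115, which held all 46926 identifiers.

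Counts were fitted with edgeR 4.0.16 in R 4.3.3 (TMM scaling, filterByExpr, quasi-likelihood F test) over all 45 libraries, with 9 genotype means and 36 residual degrees of freedom. The 16053 genes tested held all but 0.0372% of the counts. P-values were adjusted by Benjamini-Hochberg over all tested genes. Fold changes use edgeR's default prior count, and log2 CPM values use a prior count of 2. Each SE is the absolute log2 fold change divided by the square root of its F value, and is not an output of edgeR. DESeq2 1.42.0 and limma 3.58.1 gave alternatives. The script was checked on simulated data. Replicate pairs of a group differed by chi-square values of 4.89 to 88.5 per degree of freedom, so none was merged. Members and gene lists were chosen with earlier results of these data known. Named genes were the mutated genes, the 12 higher and 12 lower with the smallest p, and the 5 largest other folds each way, among called genes with at least 2-fold change, at least 5 CPM in the higher group and no overlap. To these were added 5 each way for each difference test, and up to 4 per list with the smallest p or all members of lists of up to 12 genes.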

Additional observations from a re-analysis of the deposited data

Results flagged for a closer look

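Among 74 checks of 5 libraries each, 9 values stood far from the rest of their group, where chance alone gives about 1 in 20. Replicate C of the triple mutant was such a value in H28G03.2 (157.8 CPM), pud-3 (8.186 CPM) and pud-4 (3.872 CPM). The same library stood out in pud-2.2 (77.31 CPM for a single copy) and the pseudogene WBGene00303363 (20.38 CPM). The others were the pseudogene WBGene00014672 in replicate D of the triple mutant (6.35 CPM), and in the double mutant hpo-15 in replicate B (56.27 CPM), hmit-1.2 in replicate D (14.45 CPM) and pud-3 in replicate A (23.46 CPM).

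The effect of smg-1 loss differed from that in wild type, by the edgeR test of the difference, with log2 differences of 3.489 for hif-1, 3.134 for haf-6, 7.832 for 2L52.1, 4.256 for rips-1 and 1.476 for smd-1. Negative differences were -2.838 for asns-2, -1.582 for pph-7, -2.226 for pgp-5, -1.87 for C36C5.12 and -1.043 for spds-1. It differed from that in egl-9 by 12.151 for ctl-1, 3.603 for hif-1, 5.168 for rips-1, 2.956 for haf-6 and 8.918 for 2L52.1. Negative differences from egl-9 were -2.789 for asns-2, -4.546 for T09B9.4, -1.862 for pph-7, -2.522 for ugt-31 and -2.432 for msp-79.

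The sizes for ctl-1 and 2L52.1 depend on edgeR's default prior count. The catalase gene ctl-1 was listed at 0 in all 5 smg-1; egl-9 libraries, against 39.5 ± 5.61 CPM in egl-9, while it had 24.0 ± 3.94 CPM in the triple mutant and 31.5 ± 3.01 CPM in the double mutant. 2L52.1 averaged 3.92 ± 1.18 CPM in the triple mutant and 3.24 ± 1.45 CPM in the double mutant, but 0.0235 ± 0.0525 CPM in smg-1, against 5.38 ± 0.897 CPM in N2.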

How the results depend on the processing

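The count of calls and of 2-fold calls stayed within 1.5 times the values reported, 5888 and 1944, under most settings. A filter at a mean of 5 CPM, which tests fewer genes, gave 3868 and 916, and limma on log2(TPM + 1) gave 1294 2-fold calls. Leaving out 1 library gave 5017 to 5893 calls and 1867 to 2086 2-fold calls. Genes whose effect differed from wild type numbered 402 to 1317 with 1 library left out (507 without triple mutant replicate D), 595 with only the genotypes of the contrast, 568 with limma and 511 without replicate C of both groups. Genes that differed from egl-9 numbered 275 to 881 with 1 library left out (881 without replicate A of the double mutant, 365 without smg-1; egl-9 replicate C, 352 without egl-9 replicate E), 299 with no filter, 358 with the 5 CPM filter and 208 with only the genotypes of the contrast. Limma split the differences from egl-9 390 positive to 181 negative. The cause of these shifts was not tested.

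With the replicate block the counts were 6671 calls (3209 higher, 3462 lower), 1996 2-fold calls, and 1556 and 1006 differences from wild type and egl-9. Deviations of same-lettered libraries correlated at 0.293, 0.192, 0.292 and 0.313 for A to D, but at -0.036 for E. Triple mutant A, B and D correlated best with their own letter, while C correlated best with double mutant E (0.518). The letters were therefore not taken as pairs, since not every pair was over 0.1, though 4 of 5 were. For 166 genes, the named genes that were called and all HIF-1 targets, 2959 values under these settings held 2815 with the same call and direction, 129 that lost the call, 12 that gained one and 3 that turned round. Calls were lost at least once by 30 of the genes, 7 of them col genes, and 136 never lost one. The values that turned were cysl-2, at -0.65 without replicate C of the triple mutant (-0.65 to 0.76 with any 1 library left out) and -0.69 without replicate C of both groups, and rhy-1, at -0.049 without replicate C of both groups.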
